A study of Mus musculus with 12 samples.

Results

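The genes described here are 10 components that start or amplify the complement cascade: C1qa, C1qb, C1qc, C1ra, C1s1, C2, C4b, C3, Cfb and the receptor gene C3ar1. They were chosen by gene symbol, and all 10 were found among the 25124 genes of both tables. The data were poly(A) RNA sequencing of 12 bulk retinas of wild-type (WT) C57BL/6J mice, 2 in each of 6 groups. In the single-elevation series, mice aged 3 or 18 months had 1 eye held at 30 mmHg of intraocular pressure (IOP) for 1 h (3mo IOP, 18mo IOP), and the fellow eyes were the 3mo control and 18mo control. In the repeated series, mice that were 3 months old at the start received the same elevation in 1 eye every other week, 4 times in all (4xIOP), again with the fellow eye as 4xIOP control. All retinas were taken 2 days after the last elevation. The pressure was raised through a needle in the anterior chamber, which the fellow eyes did not receive, so needle and pressure cannot be told apart.

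Complement is a protein cascade that tags surfaces for removal. In the classical pathway C1q, built from A, B and C chains, binds a surface and activates the proteases C1r and C1s, which cut C4 and C2 to form the enzyme that cleaves C3. In the alternative pathway factor B joins deposited C3b to form another C3-cleaving enzyme, which amplifies the deposit, and the C3a fragment acts on its receptor, encoded by C3ar1. In the nervous system C1q is made mainly by microglia, whereas C4b and C3 are also made by reactive glia, and complement has been linked to the removal of synapses and to glaucoma models.

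The genes lie on 3 chromosomes of the mm10 mouse genome. C1qa (chr4:136895916-136898844), C1qc (chr4:136889802-136892914) and C1qb (chr4:136880126-136886200) form a cluster on the minus strand in which neighbours are 3002 and 3602 bases apart. C1ra (chr6:124512621-124523440, plus strand) and C1s1 (chr6:124530344-124542359, minus strand) are separated by 6904 bases. C3ar1 (chr6:122847140-122856157, minus strand) lies elsewhere on the same chromosome. C4b (chr17:34728381-34743897), Cfb (chr17:34856374-34862514) and C2 (chr17:34862602-34882100) lie on the minus strand in the major histocompatibility region, with 88 bases between Cfb and C2. C3 is at chr17:57203967-57228136 on the minus strand. Values of C4b, C1ra and C1s1 are uncertain to the extent that reads could be shared with their close copies C4a, C1rb and C1s2, since only uniquely mapped reads were counted.

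Promoters are shown for C1qb and C1qc, whose levels moved side by side, and for C3, which had the largest differences of the members on the log2(FPKM + 0.5) scale after IOP at 18 months and after 4xIOP. Each is the 250 bases before the start of the transcript, 5′ to 3′ on the strand of the gene, from RefSeq on GRCm38.p6. Capitals mark matches to the motifs searched. The windows are chr4:136886201-136886450 for C1qb, chr4:136892915-136893164 for C1qc and chr17:57228137-57228386 for C3.
C1qb: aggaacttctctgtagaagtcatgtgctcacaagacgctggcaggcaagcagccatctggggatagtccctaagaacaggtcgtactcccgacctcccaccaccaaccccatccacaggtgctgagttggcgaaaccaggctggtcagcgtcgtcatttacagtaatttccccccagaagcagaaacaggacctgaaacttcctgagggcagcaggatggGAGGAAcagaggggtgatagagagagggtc
C1qc: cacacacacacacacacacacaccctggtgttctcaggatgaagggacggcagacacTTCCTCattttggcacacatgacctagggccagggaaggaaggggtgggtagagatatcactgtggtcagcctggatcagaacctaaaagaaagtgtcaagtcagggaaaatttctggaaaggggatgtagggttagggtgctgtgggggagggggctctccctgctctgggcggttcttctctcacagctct
C3: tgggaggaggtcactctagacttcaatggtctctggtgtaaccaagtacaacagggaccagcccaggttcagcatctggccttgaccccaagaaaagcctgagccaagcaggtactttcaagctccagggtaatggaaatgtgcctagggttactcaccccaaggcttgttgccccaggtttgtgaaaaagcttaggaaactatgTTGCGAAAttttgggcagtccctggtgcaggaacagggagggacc
The capitals in C1qb and C1qc are GAGGAA or its reverse complement, the core bound by PU.1, a factor of the myeloid lineage, and they begin 30 and 193 bases before the start. The capitals in C3 fit TTGCNNAA, a form of the C/EBP motif, and begin 45 bases before the start. Both strands were searched for these and for the STAT element TTCNNNGAA, the interferon element GAAANNGAA and the NF-kB form GGGANTTCC, where N is any base. Promoters of 6 of the 10 genes were matched, and C1qa, C2, C4b and Cfb were not. C1s1 also held TTGCNNAA, 242 bases before the start, and C1ra and C3ar1 held none of the motifs. Among 32817 promoter windows of the same length, 23.3% held GAGGAA and 9.57% TTGCNNAA, so these matches are common, and they describe letters rather than binding. The other 3 motifs, present in 7.01%, 7.12% and 1.43% of windows in the order given, had no match in the 6 promoters.

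The libraries held between 39766247 and 59455049 mapped reads, of which 44.2% to 71.5% lay in exons. Levels are in FPKM, reads per kilobase of transcript scaled to the mapped reads of the library. For C1qa, a short transcript, 3 reads came to between 0.0469 and 0.0700 FPKM, and for the long C4b to between 0.00943 and 0.0141. The 6 rod photoreceptor markers, Sag among them, summed to between 3358 and 15994.5 FPKM and none was at 0 in any library, as in retina. 1 library stood apart: in 3mo control replicate 2 the median level of short transcripts was 4.70 times that of long ones, against 1.198 to 3.26 in the other 11. The ratio also separated the ages: it was 1.89 to 4.70 in the 3-month libraries of the single series and 1.198 to 1.36 in the 18-month ones. The tables were normalized separately and are not compared in level.

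In the repeated series, 9 of the 10 genes reached the mean of 0.5 FPKM required for testing. All 9 were called higher in 4xIOP retinas than in their fellow eyes, against 5.45% of all 13718 genes tested. Called means an adjusted p up to 0.05 in limma with a log2 fold change of 1 or more in either direction. C1ra, C1s1, C3, Cfb and C3ar1 passed the filter only through the treated group, so that their differences were partly given by it. C2 did not pass. Both 4xIOP libraries lay above both controls for the same 9 genes, as they did for 27.7% of all genes tested. The median log2 fold change of the 9 was 3.33, against 0.10 over all genes.

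After a single elevation fewer of the genes were called, although nearly all were higher. At 3 months only C4b was called, 1 of 9 tested against 0.568% of all 13731 genes, yet both IOP libraries lay above both controls for all 10 genes, against 28.6% of genes tested. At 18 months C3 and C4b were called, 2 of 9 against 0.117%, and 9 of the 10 genes, all but C2, were higher without overlap, against 36.5%. Median log2 fold changes of the tested members were 1.54 at 3 months and 1.07 at 18 months, beside 0.13 and 0.09 over all genes. Cfb, with a mean below 0.5 FPKM, was not tested in this series, and C2 passed only through the 3mo IOP group.

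The calls after a single elevation depended on single libraries. At 3 months C4b was no longer called without 3mo control replicate 1, 3mo IOP replicate 1 or 3mo IOP replicate 2. Calls over all genes fell in those fits as well. Without 3mo control replicate 2, the library that stood apart, 3 genes were called (C1qa, C1qb and C4b), and without either 18mo IOP library, which takes part only in the estimate of spread, 4 were called, namely the C1q genes and C4b. Over all genes the calls higher rose from 78 to 253 in the first of these fits and to 124 in the others, so that more genes passed in general. At 18 months no member was called without any of the 6 other single-series libraries taken 1 at a time. Calls over all genes were lost in the same fits, so this loss was not particular to the members. Of the members, C3 alone was called without 18mo IOP replicate 2, and C1ra, C3 and C4b without 18mo IOP replicate 1. Over all genes 6 and 140 were called higher in those 2 fits, in place of 16.

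Untreated retinas differed with age. In 18mo control retinas C1qa, C1qb, C1qc, C1s1, C4b and C3ar1 were called higher than in 3mo control retinas, 6 of 9 against 11.6% of all genes. The 18-month levels lay above the 3-month levels without overlap for 9 of the 10 genes (8 of the 9 tested), against 45.7%, and C2 lay below. Of the treated retinas, those of 18 months had higher C1qa, C1ra, C3 and C4b than those of 3 months, 4 of 9 against 10.2%, and lower C2, 1 of 9 against 11.6%. Without overlap 6 of the 10 were higher, against 43.2%. With median-of-ratios size factors 1056 genes were called higher and 1959 lower with age in the controls, in place of 1595 and 1590, and the median of all genes moved from 0.16 to 0.01. C1qa, C1qb, C1qc, C4b and C3ar1 were still called under that scaling. Since the ratio of short to long transcripts moved with age, the age differences were also fitted with the length trend of each library removed. C1qa, C1qb, C1qc and C4b were then called in the controls, and C1s1 and C3ar1 were not, beside 1008 genes called higher in place of 1595. In the treated retinas C1qa, C1qb, C1qc, C3 and C4b were called higher, C2 was called lower and C1ra was not called, beside 1024 genes higher in place of 1407.

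The age counts also moved with single libraries. Without 18mo control replicate 2 only C1qa and C4b were called in the controls, without 18mo control replicate 1 C1qa, C1qc and C4b. Without 3mo control replicate 2 the calls were C1qa, C1qb, C1qc and C4b, and without replicate 1 of that group C1qa, C1qc, C1s1 and C4b. Over all genes the calls higher were 610, 932, 738 and 2624 in these 4 fits, in that order, in place of 1595. In the treated retinas, leaving out either 3mo IOP library left C3 and C4b higher and C2 lower, while the calls over all genes went from 1407 higher and 1593 lower to 542 and 267 without replicate 1 and to 401 and 321 without replicate 2.

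**Figure D1:**
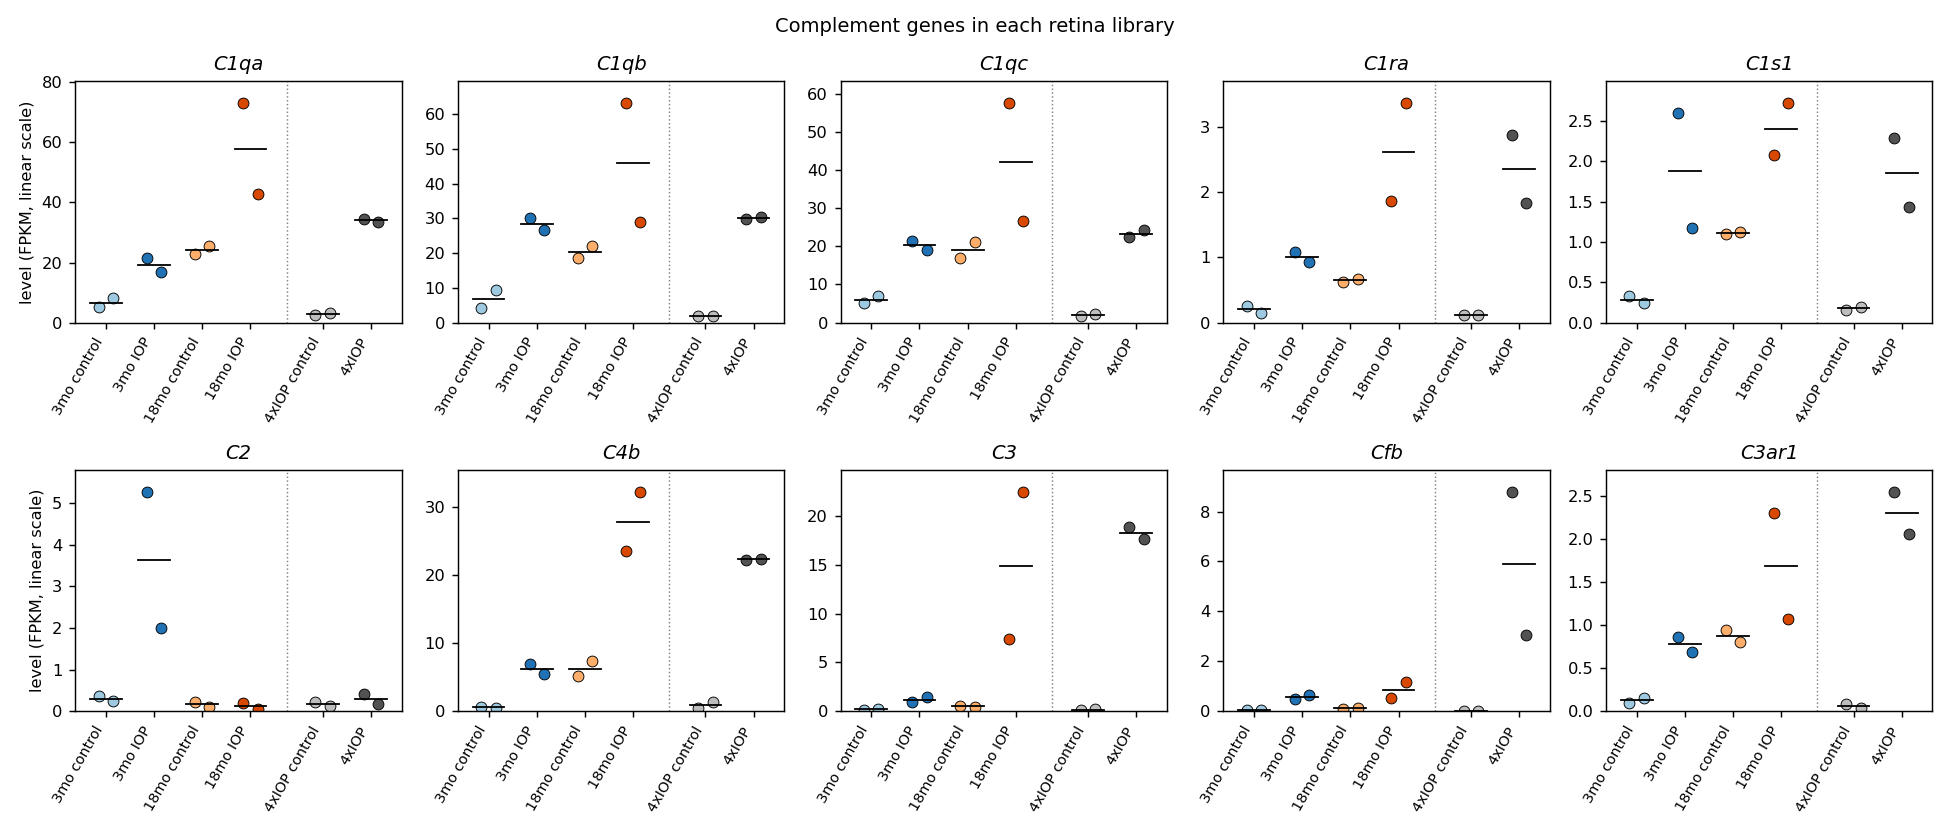
Level (FPKM, linear axis from 0) of each of the 10 genes in each of the 12 libraries; points are libraries, horizontal bars are means of 2, and the dotted line separates the 2 separately normalized series. In 9 of the 10 panels both 4xIOP points sit above both 4xIOP control points, and within the single series C2 is the only gene whose highest points are those of 3mo IOP.

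The 3 chains of C1q had the highest mean levels of the members in every group, although C1qc and C4b overlapped in 18mo IOP and in 4xIOP, and C4b was above C1qb and C1qc in 18mo IOP replicate 2. C1qa read 5.17 and 8.09 FPKM in the 3mo control libraries, 21.4 and 16.8 in 3mo IOP, 22.9 and 25.6 in the 18mo controls, and 73.1 and 42.7 in 18mo IOP. Repeated elevation gave 2.62 and 3.29 FPKM in the fellow eyes and 34.5 and 33.6 in 4xIOP. Thus each IOP group lay above its control, and 18mo control libraries lay above both 3mo IOP libraries. The age difference in controls was 1.83 ± 0.30 on the log2 scale (SE; limma adjusted p = 0.00574). The IOP difference was 1.48 ± 0.30 at 3 months (limma adjusted p = 0.0908) and 1.19 ± 0.30 at 18 months (limma adjusted p = 0.178), and neither passed. After repeated elevation it was 3.33 ± 0.22 (limma adjusted p = 7.25e-07).

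C1qb, the B chain, read 4.30 and 9.47 FPKM in the 3mo controls, 30.1 and 26.7 in 3mo IOP, 18.5 and 22.0 in the 18mo controls, and 63.2 and 29.0 in 18mo IOP. In the repeated series the levels were 1.88 and 1.89 in controls and 29.8 and 30.5 in 4xIOP. C1qc, the C chain, read 5.17 and 6.95 in the 3mo controls, 21.5 and 19.0 in 3mo IOP, 16.9 and 21.1 in the 18mo controls, 57.6 and 26.8 in 18mo IOP, and 1.77, 2.23, 22.4 and 24.3 in the repeated series. For both chains the lower 18mo IOP library was nearer to the 18mo controls than to the other 18mo IOP library. The rise with age was 1.58 ± 0.41 for C1qb and 1.58 ± 0.33 for C1qc (limma adjusted p = 0.0179 and 0.00966). With 4xIOP the differences were 3.68 ± 0.20 and 3.26 ± 0.21 (limma adjusted p = 1.98e-07 and 6.03e-07). Neither passed after a single elevation, where the log2 differences were 2.06 and 1.67 at 3 months and 1.07 and 1.04 at 18 months.

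The shares of the 3 chains in the summed C1q level varied between libraries. C1qa made up 26.8% to 44.4% of the summed C1q level, C1qb 25.5% to 42.7% and C1qc 25.8% to 35.3%. In the 3mo IOP libraries C1qb was the largest share (41.2% and 42.7%) and C1qa the smallest (29.4% and 26.8%). In both 18-month groups C1qa was the largest, at 37.3% to 43.4%. In 3mo control the levels of the 3 chains overlapped, so no order could be read there.

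Markers of microglia, the resident macrophages of the retina, were higher in most libraries with more C1q, but not in all. The 12 homeostatic microglia markers, P2ry12, Tmem119 and Cx3cr1 among them, were all above 0 in every library, and their summed level was 23.4 and 30.8 FPKM in the 3mo controls, 49.4 and 40.8 in 3mo IOP, 51.3 and 54.7 in the 18mo controls, 124 and 43.4 in 18mo IOP, 14.0 and 13.4 in 4xIOP control, and 49.9 and 63.9 in 4xIOP. In 18mo IOP replicate 2 this sum lay below both 18mo controls, whereas summed C1q (98.5 FPKM) lay above both (58.3 and 68.7). Of the 11 markers tested at 3 months none was called with IOP, and their log2 differences had a median of 0.62, from -0.05 (P2ry13) to 1.40 (Fcrls). None was called with IOP at 18 months either. With age in controls 4 of 11 were called higher, beside 11.6% of all genes. With 4xIOP 8 of 10 tested were called higher, beside 5.45%, some of which, such as Fcrls, passed the filter only through 4xIOP. Summed C1q per summed microglia marker was 0.62 and 0.79 in the 3mo controls, 1.48 and 1.53 in 3mo IOP, 1.14 and 1.26 in the 18mo controls, and 1.56 and 2.27 in 18mo IOP. It was 0.45 and 0.55 in 4xIOP controls and 1.74 and 1.38 in 4xIOP. The ratio was thus higher in every IOP library than in the controls of its age or series. When 7 markers shared by microglia and macrophages (Aif1, Tyrobp and Ctss among them) took the place of the homeostatic markers, the ratio was 0.55 to 0.64 in the 3mo controls, 0.61 to 0.87 in 3mo IOP, 0.83 to 0.92 in the 18mo controls, 0.92 to 0.94 in 18mo IOP, 0.59 to 0.91 in 4xIOP control and 0.61 to 0.67 in 4xIOP. On that denominator treated and control libraries overlapped in all 3 pairs of groups. Of these 7 markers 4 were called higher with age in controls, beside 11.6% of all genes, and 7 with 4xIOP, beside 5.45%. With a single elevation 1 was called higher at 3 months, beside 0.568% of all genes, and 0 at 18 months. In bulk retina fewer cells of a type and less RNA per cell cannot be told apart.

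**Figure D2:**
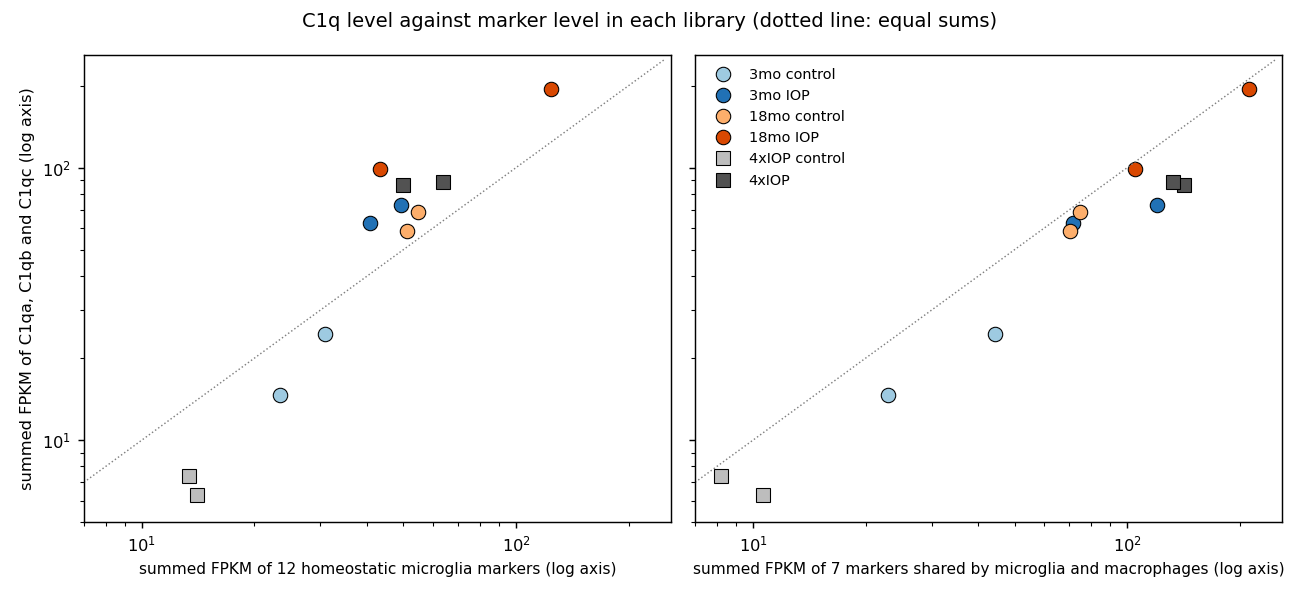
Summed FPKM of C1qa, C1qb and C1qc (vertical, log axis) against the summed FPKM of 12 homeostatic microglia markers (left) or 7 markers shared by microglia and macrophages (right; log axes), 1 point per library, squares for the repeated series. On the left the control points of 3mo and 4xIOP lie below the line of equal sums and all other points above it, and on the right all points lie below the line, at ratios between 0.55 and 0.94.

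C1ra and C1s1, the proteases carried by C1q, were expressed at a low level in control retinas. C1ra read 0.254 and 0.152 FPKM in the 3mo controls, 1.09 and 0.934 in 3mo IOP, 0.631 and 0.668 in the 18mo controls, 1.86 and 3.37 in 18mo IOP, 0.110 and 0.112 in 4xIOP control, and 2.89 and 1.84 in 4xIOP. C1s1 read 0.333 and 0.239 in the 3mo controls, 2.60 and 1.17 in 3mo IOP, 1.10 and 1.13 in the 18mo controls, 2.08 and 2.72 in 18mo IOP, 0.156 and 0.196 in 4xIOP control, and 2.29 and 1.43 in 4xIOP. Every IOP library lay above its controls for both proteases, and the 18mo control libraries lay above the 3mo control libraries. After 4xIOP the differences were 2.21 ± 0.26 for C1ra and 1.78 ± 0.26 for C1s1 (limma adjusted p = 7.65e-05 and 0.000531). C1s1 was called with age at 1.04 ± 0.30 (limma adjusted p = 0.0252), just past the fold limit, a call lost with a pseudocount of 1, no filter, median-of-ratios size factors, quantile normalization or the length trend removed. C1ra at 0.71 ± 0.27 was not called (limma adjusted p = 0.0595). C1ra was called between the treated retinas of the 2 ages at 1.00 ± 0.27 (limma adjusted p = 0.0217), again at the limit, and was no longer called with a pseudocount of 1, median-of-ratios size factors, quantile normalization, the length trend removed or the replicate block. After a single elevation C1ra differed by 1.11 ± 0.27 and 1.40 ± 0.27 at 3 and 18 months (limma adjusted p = 0.164 and 0.115).

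C4b encodes complement C4, the first substrate of C1s, and was the one member called in all 5 comparisons of groups. It read 0.576 and 0.544 FPKM in the 3mo controls, 6.94 and 5.47 in 3mo IOP, 5.22 and 7.34 in the 18mo controls, and 23.6 and 32.3 in 18mo IOP. Its level was 0.484 and 1.40 in 4xIOP controls and 22.3 and 22.4 in 4xIOP. Untreated 18-month retinas therefore overlapped with treated 3-month retinas, and no library of a treated group overlapped with its controls. The differences were 2.66 ± 0.23 with age in controls (limma adjusted p = 0.00265), 2.65 ± 0.23 with IOP at 3 months (limma adjusted p = 0.0158), 2.07 ± 0.23 with IOP at 18 months (limma adjusted p = 0.0443), 2.07 ± 0.23 between the treated retinas of the 2 ages (limma adjusted p = 0.00239) and 4.06 ± 0.27 with 4xIOP (limma adjusted p = 7.44e-07). Its age difference in controls was called under all 11 alternative settings and without each of 8 libraries. Its IOP call at 3 months held under all 11 settings but in only 5 of the 8 fits without a library, and that at 18 months under 5 of the 11 settings, the replicate block not among them, and in 1 of the 8 fits. In the fits without a library its log2 difference was 2.49 to 2.81 at 3 months and 1.84 to 2.29 at 18 months. Its close copy C4a stayed between 0.169 and 0.780 FPKM in all libraries, had a mean under the filter in both series and was not tested.

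C2, the partner of C4 in the classical C3-cleaving enzyme, followed another pattern. It read 0.367 and 0.247 FPKM in the 3mo controls, 5.27 and 2.01 in 3mo IOP, 0.235 and 0.0980 in the 18mo controls, 0.194 and 0.0640 in 18mo IOP, 0.230 and 0.135 in 4xIOP control, and 0.414 and 0.180 in 4xIOP. Only the 3mo IOP libraries were high, the 18mo IOP libraries overlapped with their controls, and so did the 4xIOP libraries. Counted in reads, C2 had 971 in the 3mo IOP libraries and 71 in their controls, a ratio per mapped read of 12.7 (exact 95% interval 9.99 to 16.4, counting error only). The log2 difference at 3 months was 2.24 ± 0.38 and narrowly missed the call (limma adjusted p = 0.0531), and at 18 months it was -0.08 ± 0.38. Between the treated retinas of the 2 ages C2 was lower at 18 months, at -2.61 ± 0.38 (limma adjusted p = 0.00464), a call partly given by the filter, which C2 passed only through 3mo IOP.

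Melanocyte and choroid pigment markers, like C2, were highest in the 3mo IOP libraries of the single series. The 4 melanocyte and choroid pigment markers (Dct, Tyrp1, Pmel and Mlana) summed to 66.6 and 18.6 FPKM in the 3mo controls, 469 and 228 in 3mo IOP, 4.86 and 0.144 in the 18mo controls, 1.08 and 0.217 in 18mo IOP, 3.28 and 2.80 in 4xIOP control, and 0.446 and 1.11 in 4xIOP. The 3mo IOP library with more C2 also had more of these markers, whereas in 4xIOP they were below both controls and C2 was not. The 6 pigment epithelium markers, Rpe65 among them, summed to 166 and 202 in the 3mo controls, 246 and 80.9 in 3mo IOP, on either side of the controls, and at most 8.34 in the 18-month libraries. The part of pigmented tissue in the level of C2 was not tested. Cfb, which starts 88 bases beyond the end of C2 on the same strand, did not share the pattern.

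C3, on which all activation routes converge, was low in all controls and had the largest difference of the members on the log2(FPKM + 0.5) scale after IOP at 18 months and after 4xIOP, although the 4xIOP ratio of summed reads was larger for Cfb. It read 0.146 and 0.271 FPKM in the 3mo controls, 0.975 and 1.43 in 3mo IOP, 0.582 and 0.465 in the 18mo controls, and 7.40 and 22.4 in 18mo IOP. In the repeated series it read 0.158 and 0.209 in controls and 18.8 and 17.6 in 4xIOP. No treated library overlapped with its controls, and 18mo IOP replicate 2 was well above replicate 1. The IOP difference was 1.26 ± 0.44 at 3 months (limma adjusted p = 0.401), 3.72 ± 0.44 at 18 months (limma adjusted p = 0.0443) and 4.78 ± 0.19 with 4xIOP (limma adjusted p = 1.52e-08). The call at 18 months held under 4 of 11 alternative settings, the replicate block not among them, and in 2 of 8 fits without a library. The log2 difference at 18 months was 2.95 to 4.49 in those 8 fits. Treated 18-month retinas lay above treated 3-month retinas by 3.00 ± 0.44 (limma adjusted p = 0.0047). Untreated retinas differed with age by 0.53 ± 0.44 (limma adjusted p = 0.339). From summed reads the 4xIOP ratio of C3 was 99.4 (exact 95% interval 79.5 to 126, counting error only), larger than the fitted value because the pseudocount of 0.5 shrinks folds of genes near 0.

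Cfb, the alternative pathway partner of C3b, was low in control retinas and higher in every treated library than in the controls of its group. It was at 0.0350 and 0.0690 FPKM in the 3mo controls, 0.506 and 0.651 in 3mo IOP, 0.109 and 0.141 in the 18mo controls, 0.541 and 1.17 in 18mo IOP, 0 and 0.0260 in 4xIOP control, and 8.78 and 3.04 in 4xIOP. The 4xIOP controls held 0 and 3 reads and the 4xIOP libraries 1344 and 350, a ratio of 471 per mapped read with an exact 95% interval of 161 to 2286 for counting error. The fitted difference was 3.48 ± 0.35 (limma adjusted p = 2.35e-05), and with voom on the recovered reads Cfb was not called (limma adjusted p = 0.054). In the single series, where it was not tested, summed reads gave ratios of 10.7 (exact 95% interval 6.05 to 20.5) at 3 months and 6.93 (4.77 to 10.4) at 18 months, and the treated and control libraries did not overlap at either age.

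C3ar1, the receptor for C3a, is found on microglia and other myeloid cells. It read 0.101 and 0.156 FPKM in the 3mo controls, 0.866 and 0.693 in 3mo IOP, 0.940 and 0.801 in the 18mo controls, 2.30 and 1.07 in 18mo IOP, 0.0820 and 0.0330 in 4xIOP control, and 2.54 and 2.06 in 4xIOP. The untreated 18-month libraries overlapped with the treated 3-month libraries. It rose with age by 1.12 ± 0.29 (limma adjusted p = 0.0179), a call lost with a pseudocount of 1, quantile normalization or the length trend removed, and with 4xIOP by 2.32 ± 0.24 (limma adjusted p = 3.08e-05). After a single elevation the differences were 1.02 ± 0.29 and 0.62 ± 0.29 at 3 and 18 months (limma adjusted p = 0.255 and 0.606).

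**Figure D3:**
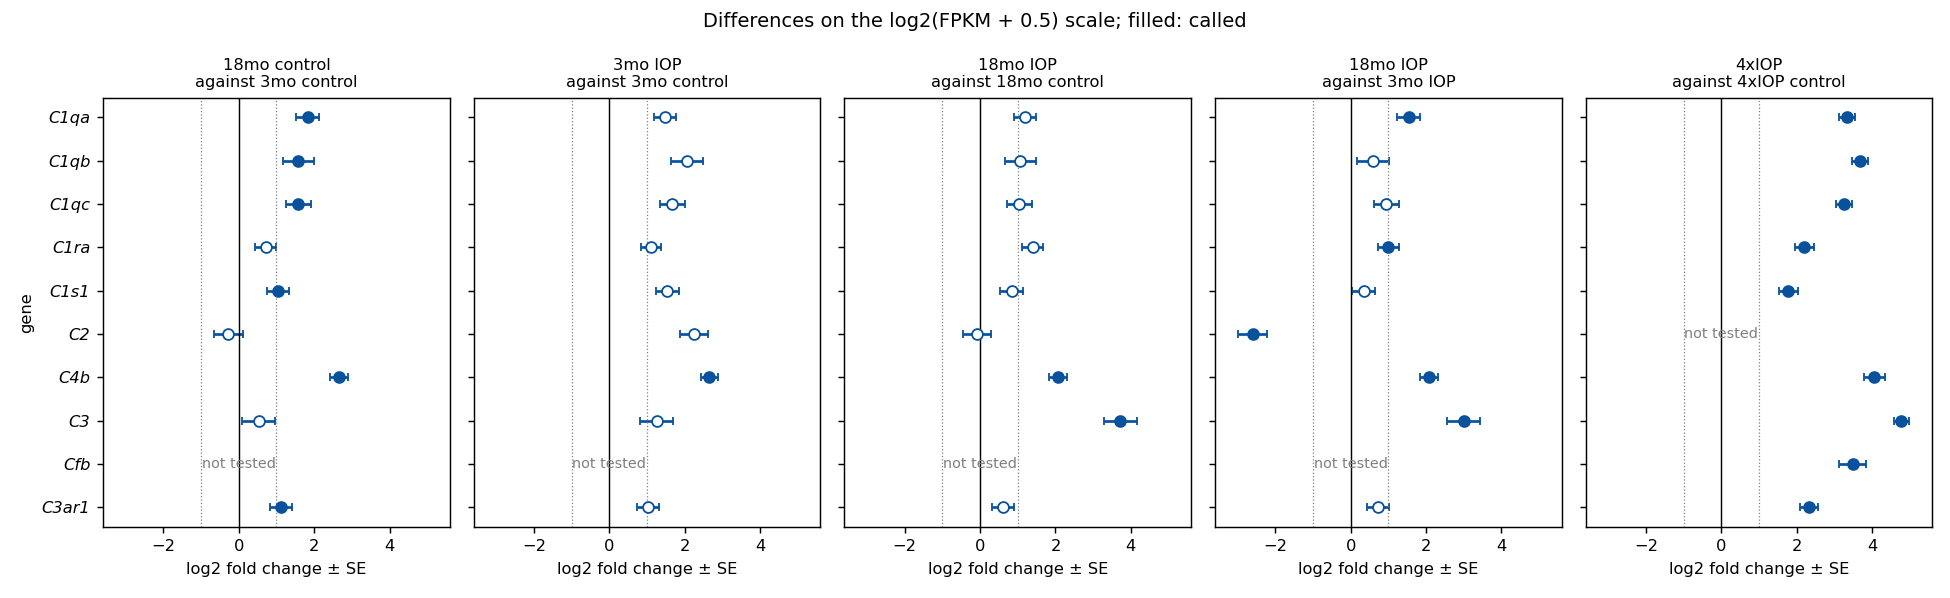
Log2 fold change of each gene on the log2(FPKM + 0.5) scale (horizontal, bars are SE) in 5 comparisons, with filled points for called genes and dotted lines at the fold limit of 1. In the 4xIOP panel all 9 tested genes are filled, between 1.78 (C1s1) and 4.78 (C3), and C2 is the only gene with a filled point below 0, in 18mo IOP against 3mo IOP.

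Whether the response to a single elevation differed between the ages was tested as an interaction, which asks if the log2 IOP difference at 18 months minus that at 3 months departs from 0. No gene passed, 0% of 13731, and the smallest adjusted p of all genes was 1.0 in limma. voom on the recovered reads also gave 0, whereas 2 genes were called higher without the filter on low values and 2 lower without 3mo IOP replicate 2, none of them a member. At an unadjusted limma p under 0.05 there were 218 genes, 2 of them members. These were C2, at -2.33 ± 0.54 (limma unadjusted p = 0.00243), and C3, at 2.46 ± 0.62 (limma unadjusted p = 0.00398). The value of C2 was partly given by the filter, which C2 passed only through 3mo IOP. The other 7 tested members had interactions between -0.99 (C1qb) and 0.29 (C1ra). Neither passed the correction over all genes, so a difference in response between the ages was not shown for C2 or C3.

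The 2 retinas of the 18mo IOP group differed from each other in a way that split the genes. Replicate 1 had more C1q (summed level 194 against 98.5 FPKM), more C3ar1 and more homeostatic microglia marker (124 against 43.4). Replicate 2 had more C3, C4b, C1ra, C1s1 and Cfb, and more of the 6 reactive glia markers, Gfap, Lcn2 and Serpina3n among them (1045 against 325). The same sum was 87.2 and 83.5 in the 18mo controls, 360 and 313 in 3mo IOP, and 52.4 and 78.8 in its controls. In 4xIOP the order differed. Replicate 1 had more Cfb, C1ra, C1s1 and C3ar1 with a lower reactive glia sum (548 against 1286), while C3 and C4b were nearly equal. The part of either cell type in the complement levels was not tested.

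The make-up of the summed complement level therefore differed between groups. The 3 C1q chains made up 89.0% and 93.6% of the sum over the 10 genes in the 3mo controls, 86.9% and 86.6% in the 18mo controls, and 80.0% and 83.5% in 3mo IOP. They made up 83.6% and 60.9% in 18mo IOP, 83.7% and 77.8% in 4xIOP control, and 59.9% and 64.5% in 4xIOP. C3 made up 0.59% to 1.91% in both control groups and the 3mo IOP group of the single series, 3.19% and 13.9% in 18mo IOP, 2.11% and 2.19% in 4xIOP control, and 13.02% and 12.9% in 4xIOP. Within the single series 18mo IOP replicate 2 thus had the lowest share of C1q and the highest share of C3. The ratio of C4b to C3 was 1.18 and 1.27 in 4xIOP and 3.18 and 1.44 in 18mo IOP, and it was between 2.01 and 15.8 in the other 4 groups. The sum itself was 16.4 and 26.2 FPKM in the 3mo controls, 91.2 and 74.9 in 3mo IOP, 67.2 and 79.4 in the 18mo controls, 232 and 162 in 18mo IOP, 7.49 and 9.53 in 4xIOP control, and 145 and 137 in 4xIOP.

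**Figure D4:**
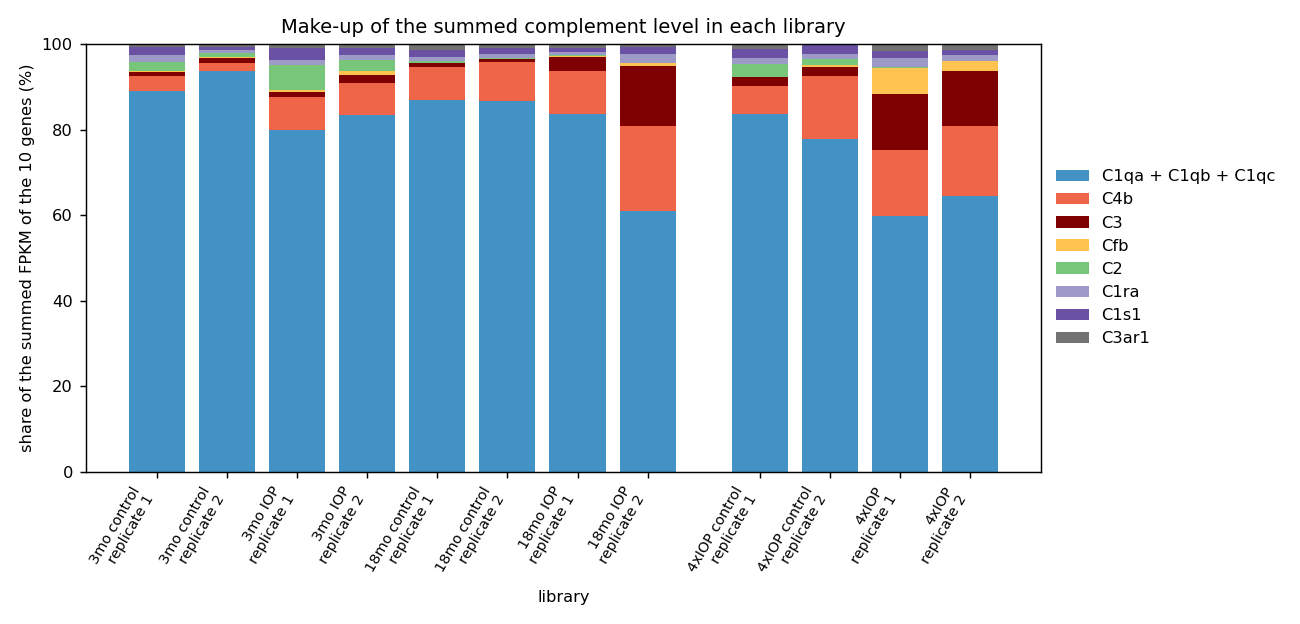
Share of each gene in the summed FPKM of the 10 complement genes (%), 1 bar per library, the repeated series set apart on the right. C1q fills 60.9% of the bar of 18mo IOP replicate 2 and 59.9% and 64.5% of the 4xIOP bars, against at least 77.8% of all others.

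Markers of other cells also moved with the groups. In 4xIOP the 11 markers of infiltrating leukocytes summed to 55.8 and 52.0 FPKM against 0.634 and 0.214 in the fellow eyes, with S100a8 at 23.3 ± 4.5 (SD, n = 2) and Ccr2 at 3.61 ± 0.82, and 1 of the 11 was at 0 in each treated library. The 5 tested markers of this list were called higher, where 5.45% of all genes were, but they passed the filter only through the treated group. In the single series the same sum was highest in a 3mo control (11.1), where Plac8 alone was at 10.4. At 3 months the groups overlapped, at 6.71 and 2.93 in 3mo IOP against 2.22 and 11.1 in the controls. At 18 months the sum was higher without overlap after IOP, at 2.79 and 4.41 against 0.630 and 0.9 in the controls. None of the 3 tested markers of this list was called with IOP at either age. The 4 lens markers were at 46.7 and 107 in 4xIOP against at most 4.30 in its controls. Lower without overlap in 4xIOP were pigment epithelium markers (3.48 and 6.81 against 27.5 and 38.4), the Muller glia sum (551 and 661 against 841 and 899) and rod markers (3358 and 5215 against 5787 and 5759). The Muller glia sum was lower through Glul and Rlbp1, whereas the means of the other 5 of its 7 genes were higher, and none of the 7 was called. Among the 6 rod markers the mean of Sag was higher in 4xIOP (2077 against 1506 FPKM), and none of the 6 was called. Reactive glia markers summed to 548 and 1286 in 4xIOP against 32.6 and 38.0 in its controls. With age, retinal ganglion cell markers were lower (35.2 and 81.0 in 18mo control against 325 and 630 in 3mo control), Muller glia markers were higher (1130 to 1427 against 529 to 632) and pigment epithelium markers were lower. Rod markers were also lower with age (9280 and 8289 against 12774 and 15994.5). Blood markers were lower in 18mo IOP (54.3 and 44.3) than in the 18mo controls (166 and 426), and none of them was called there. The part of these cells in the complement levels was not tested.

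The rest of the complement system was less uniform. No component of the terminal pathway was tested: the 7 genes Hc, C6, C7, C8a, C8b, C8g and C9 summed to at most 0.616 FPKM in any library. Of 15 lectin pathway genes, close copies and other starters, only Cfp (properdin, which steadies the alternative enzyme) and Colec12 passed the filter in the single series and only Cfp in the repeated one. None was called in any comparison. Cfp was at 4.19 ± 0.77 FPKM in the 3mo controls and 7.98 ± 0.25 in 18mo control (SD, n = 2), with a log2 difference of 0.86 ± 0.18 that stayed under the fold limit, and at 3.45 ± 0.28 and 6.99 ± 2.08 in 4xIOP control and 4xIOP.

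Of 13 regulators, which restrain the cascade, 9 were tested in each series. Serping1, the inhibitor of C1r and C1s, was called in 4 of the 5 comparisons of groups. It was at 3.93 ± 0.10 FPKM in the 3mo controls, 25.7 ± 4.0 in 3mo IOP, 9.74 ± 0.04 in the 18mo controls and 57.0 ± 32.9 in 18mo IOP, and at 1.43 ± 0.02 and 33.7 ± 6.1 in the repeated series. Its IOP difference was 2.55 ± 0.35 at 3 months (limma adjusted p = 0.0325), 2.36 ± 0.35 at 18 months (limma adjusted p = 0.071, not called) and 4.13 ± 0.22 with 4xIOP (limma adjusted p = 1.28e-07). Clu, which binds terminal complexes, went from 199 ± 48 in 3mo control to 466 ± 15 in the 18mo controls and 1433 ± 402 FPKM in 18mo IOP, and was called with age in both the untreated and the treated retinas. With 4xIOP the calls were Serping1, Cfi (2.12 ± 0.21) and Clu (1.51 ± 0.36), 3 of 9 against 5.45% of all genes, with a median of 0.36. Cfi encodes the protease that inactivates C3b. Cd59a, which blocks the terminal complex on cells, differed by 0.28 ± 0.26 and was not called. With age Susd4, a further regulator, was called higher in controls at 1.06 ± 0.31.

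Receptors for complement fragments followed the activating components in the repeated series. Itgam and Itgb2, which together form the receptor CR3 of myeloid cells, were at 0.253 ± 0.037 and 0.0945 ± 0.0163 FPKM in 4xIOP control and at 6.08 ± 0.08 and 4.53 ± 0.77 in 4xIOP, log2 differences of 3.13 ± 0.20 and 3.07 ± 0.22. All 5 tested receptors were called higher there, the others being C5ar1 (1.61), Itgax (1.58) and Cd93 (1.21), where 5.45% of all genes were called higher. All 5 had control means below 0.5 FPKM and passed the filter only through the treated group, so their calls were partly given by it. In the single series only Itgam and Itgb2 were tested. Both were called with age in controls, where 11.6% of all genes were, at 1.32 ± 0.33 and 1.34 ± 0.38, and neither after a single elevation, at 0.79 and 1.26 at 3 months and 0.96 and 0.89 at 18 months.

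**Figure D5:**
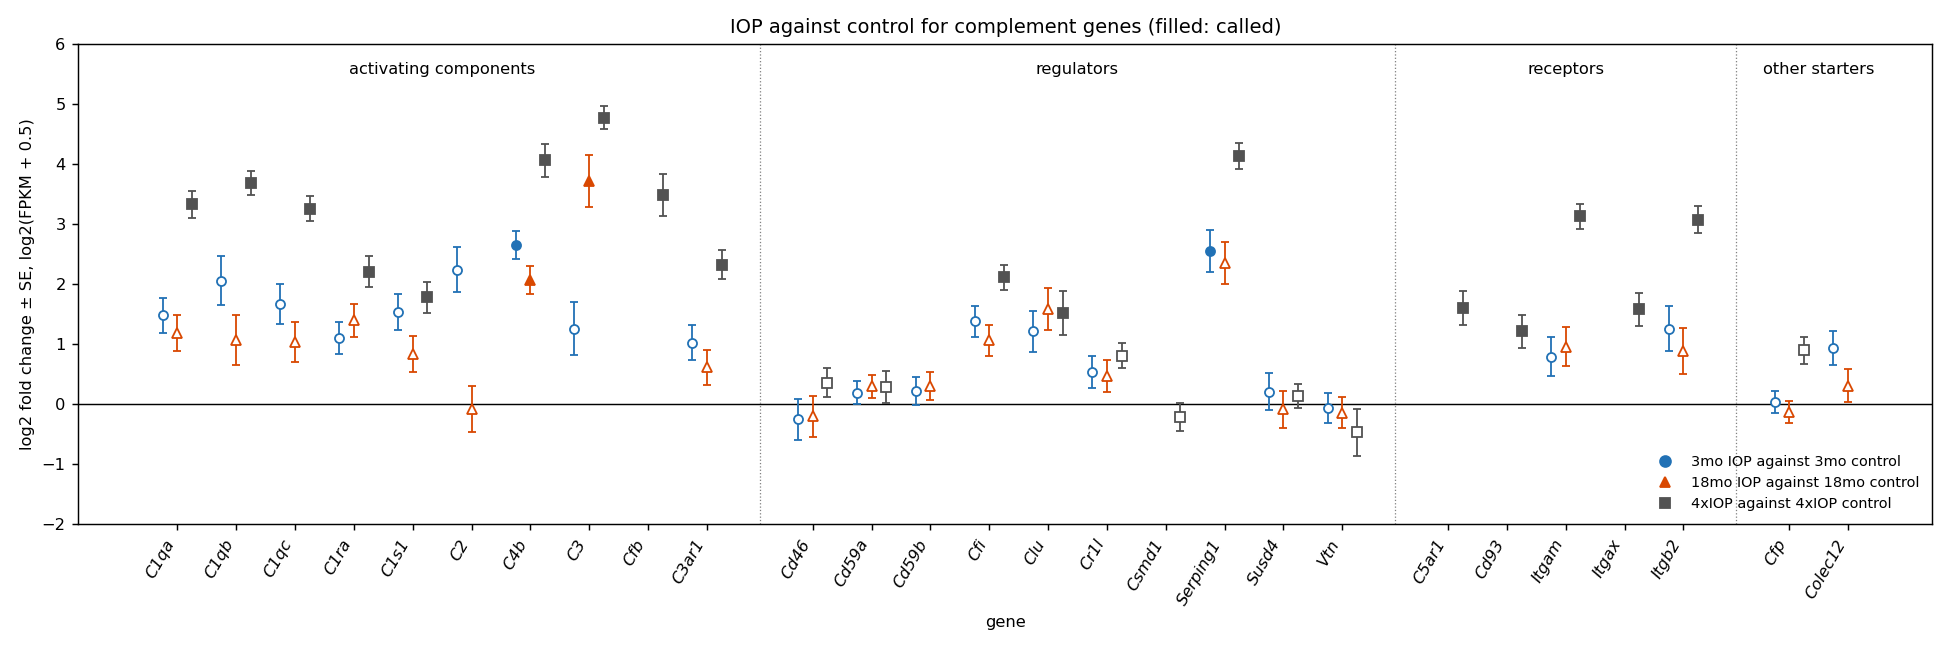
Log2 fold change with SE of IOP against control (vertical, log2(FPKM + 0.5) scale) for the tested complement genes reported here, by role; circles 3mo IOP, triangles 18mo IOP, squares 4xIOP, filled where called. The squares of C3 (4.78), Serping1 (4.13) and C4b (4.06) are the highest, and Cd59a stays at or under 0.30 in all 3 comparisons.

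The genes with a pattern most like a member were sought among 13059 genes tested in both series, by the root mean square difference over all 12 libraries of log2(FPKM + 0.5) centred within each series. For C1qa they were C1qc (0.21), Mpeg1 (0.25), Ctss (0.26), Itgam (0.29) and Itgb2 (0.30), beside a spread of 1.32 of C1qa itself. For C4b they were Socs3 (0.49), Fgf2 (0.50), H2-Q4 (0.53), H2-L (0.54) and H2-D1 (0.54), beside 1.82. For C3 they were Steap4 (0.43), A2m (0.55), Fgf2 (0.56), Serping1 (0.66) and Cd74 (0.70), beside 1.95. The genes nearest to C1qa were thus closer to it than those nearest to C4b or C3 were to them, and the 3 lists shared only Fgf2, between C4b and C3.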

How the data were processed

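The authors sequenced poly(A) RNA of 12 bulk retinas, used STAR 2.7.8a for alignment to mm10 (per the labels) and counted uniquely mapped reads in exons, by strand, with HOMER. The deposited unit is FPKM per gene, in a table for each series, with replicates kept apart. Depth was recovered from the whole-read steps of the FPKM and tested on simulated data. Genes averaging 0.5 FPKM or more were tested on log2(FPKM + 0.5) with lmFit and eBayes (trend) in limma 3.58.1 (R 4.3.3), 8 libraries as 4 groups or 4 libraries alone. Adjusted p are Benjamini-Hochberg over all genes tested. Fold changes on this scale understate those of low genes. With 2 libraries a group, p-values measure only the spread between these samples, and the labels do not say that they are separate animals. Reads from overlapping Mir6978 and Mir6972 were not separated from C3 and Cfb. All 10 genes were named in every comparison, other complement genes if called or listed beforehand, and the 5 nearest genes for likeness. The members and lists were chosen with earlier results of these data known. Pseudocounts, filters, scalings, a length correction, a replicate block and left-out libraries were tried as alternatives. Replicate numbers were not used to pair libraries. The comparisons of the authors were not used. Some listed genes are not reported here.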

Additional observations from a re-analysis of the deposited data

How the results depend on the processing

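The 9 members called with 4xIOP stayed higher without each library, at log2 differences of at least 1.51 (C1s1). The filter was not applied anew in those fits, and C1ra, C1s1, C3, Cfb and C3ar1 had passed it only through 4xIOP. With a mean of at least 2 FPKM only 6 members were tested with 4xIOP, and all 6 were called: C1qa, C1qb, C1qc, C3, C4b and Cfb. Without single libraries the members called higher changed for age in controls, for IOP at either age and for age in treated retinas. The calls over all genes moved in these fits too. For IOP at 18 months, 0 members in place of 2 were called with a pseudocount of 0.1, without a filter, with median-of-ratios size factors, with voom, with only the 2 groups compared and with the replicate block, and 1 with quantile normalization. For IOP at 3 months 2 were called without a trend and with only the 2 groups compared. With a mean of at least 2 FPKM, 0 members were lower in 18mo IOP against 3mo IOP, because C2 was then not tested. The replicate block changed no other count of members by over 1.5 times, but over all genes it lowered the calls higher from 78 to 20 at 3 months and from 16 to 0 at 18 months. Deviations of same-numbered control and IOP libraries correlated at -0.28, -0.53 and -0.29, and with 2 libraries a group crossed numbers give the same values above 0, so the numbers may be crossed. Numbers crossed in the block, chosen after seeing the data, gave 6 member calls at 3 months (C1qa, C1qb, C1qc, C1s1, C2 and C4b). At 18 months they gave 5 (C1qa, C1qc, C1ra, C3 and C4b), and 298 genes were called higher at each age. Over all genes, 78 calls higher at 3 months became 10 with median-of-ratios size factors, 13 with quantile normalization and 3 with voom, and 16 at 18 months became 0, 3 and 0, while the median of all genes at 3 months moved from 0.13 to -0.04 under all 3. Summed C1q per shared myeloid marker in place of homeostatic marker averaged 0.738 against 1.504 in 3mo IOP, 0.874 against 1.197 in 18mo control, 0.928 against 1.92 in 18mo IOP, 0.748 against 0.50 in 4xIOP control and 0.639 against 1.56 in 4xIOP. Differences near 0 changed sign: the interaction of C1ra at a pseudocount of 0.1 (-0.094) and with voom (-0.32). Without single libraries so did the interactions of C1ra (-0.069 to 0.64), C1qa (-0.67 to 0.094) and C3ar1 (-0.82 to 0.0099), C1s1 in 18mo IOP against 3mo IOP (-0.11 to 0.79) and C2 in 18mo IOP against 18mo control (-0.23 to 0.066). The cause of these changes was not tested. C2 outside the 3mo IOP group, Cfb in the single series and the terminal components lay near the limit set by depth and filter.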
